A study of Mus musculus with 23 samples.

Results

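Regulatory T cells (Treg) of the small intestinal lamina propria were compared with the CD103+Klrg1- Treg of peripheral lymph nodes on 4 of the 23 arrays of the study, 2 for each population. Each array was placed in its group by its label, and the comparison itself was chosen with earlier results of these data known. The gut pools were CD4+ Foxp3-GFP+ T cells, and the lymph node pools were CD4+ Foxp3-GFP+ T cells that carried CD103 and lacked Klrg1 at the surface. A pair of arrays of CD4+ Foxp3-GFP- T cells from the same gut tissue (gut Tconv) served to mark genes that go with the site and not with Foxp3. Both other lymph node Treg subsets, CD103+Klrg1+ and CD103-Klrg1- (2 arrays each), were set beside them. All 10 of these arrays came from male C57BL/6-Foxp3/GFP reporter mice aged 6 to 10 weeks, with cells of 4 to 6 mice pooled for each array, and every sort gated CD3+ cells without B220, CD8a and CD11b/c. The remaining 13 arrays hold BDC2.5/NOD/Foxp3-GFP- T cells moved into NOD RAG-/- hosts, or HA6.5/Thy1.2/RAG-/-/Balb/c CD25- T cells moved into Balb/c mice and exposed to DEC-HAPeptide, each sorted into converted (Foxp3-GFP+ or CD25+) cells and their negative counterparts, and enter here only through the estimate of each gene's spread and as a range of levels.

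Treg are CD4 T cells programmed by the transcription factor Foxp3 to restrain immune responses. Those of the gut wall face food and microbial antigens and are known for making interleukin 10, the cytokine whose loss leads to colitis. T cells reach the small intestine through the chemokine receptor Ccr9 and the integrin pair of Itga4 and Itgb7, which vitamin A-derived retinoic acid induces, and ligands from diet and microbes act on them through the aryl hydrocarbon receptor. CD103, encoded by Itgae, binds E-cadherin on epithelium, and the inhibitory receptor Klrg1 marks Treg of an advanced effector state.

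The genes behind the sort fitted the labels on all 4 arrays. Foxp3 was 11.34 and 11.09 (log2 intensity) on the gut Treg arrays and 10.58 and 11.08 on the lymph node CD103+Klrg1- arrays, against 4.73 and 4.57 on the gut Tconv arrays. Itgae was 13.14 and 12.87 in gut Treg and 12.59 and 13.02 in the lymph node Treg, with a log2 difference of 0.20 ± 0.61 (standard error; limma adjusted p = 0.936); the gut Treg were not sorted on CD103, and their range overlapped that of the lymph node Treg. Il2ra, the interleukin 2 receptor alpha chain, was 9.69 and 10.48 in gut Treg and 11.43 and 11.34 in lymph node Treg; the ranges did not overlap, but the difference of -1.31 ± 0.38 did not pass the test (adjusted p = 0.0937). Of the 12 T cell markers tested none was called, and Cd4 was between 9.63 and 9.98 on all 4 arrays. Ikzf2, a transcription factor of Treg, differed by -0.11 ± 0.18 (adjusted p = 0.87).

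The 10 gut and lymph node arrays had median intensities of 75.5 to 78.8, within the 63.7 to 81.1 of all 23. The correlation of log2 values within a pair was 0.985 for gut Treg, 0.991 for the lymph node CD103+Klrg1- Treg and 0.963 for gut Tconv. Control probe sets for Actb differed between the 3' and the 5' end by 0.963 and 1.05 (log2) in gut Treg, by 1.93 and 2.04 in the lymph node Treg and by 0.798 and 2.14 in gut Tconv. The gap was smaller in gut Treg than in the lymph node Treg, while the gut Tconv arrays lay on either side of gut Treg. Gut cells were also isolated by a tissue procedure of their own, per the labels, so the site and the isolation cannot be told apart in any gut value given here. Each group compared had 2 pools, the labels do not say whether their cells were prepared separately, and p-values rest on the spread within all 9 groups of the study, the transfers into NOD and Balb/c mice included, which may be technical.

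Gut Treg differed from lymph node CD103+Klrg1- Treg in a small part of the genes measured, by large factors. Of 12516 genes tested, 329 were called at an adjusted p under 0.05 (2.63%), of which 142 (1.13%) were higher in gut Treg and 187 (1.49%) were lower, and 286 of the calls were at least 2-fold. The 15 largest rises were those of Gzma, Hspa1b, Hspa1a, Il10, Ccr9, Klrg1, Gzmb, Epas1, Igha, Asb2, Jchain, Gadd45b, Ahrr, Mmp9 and Lztfl1, with log2 differences from 3.33 to 6.34. The 15 largest falls, from -2.56 to -3.75, were those of Pxylp1, Gpm6b, Sema4a, Cnn3, Bank1, Ms4a1, Cmah, Reck, Plagl1, Hepacam2, Sbk1, Il6ra, Ddc, Pou2af1 and Rgmb. Gut Tconv were also called higher for 12 of the 15 rises and lower for 9 of the 15 falls.

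The count of calls fell whichever array of the compared groups was left out, and no called gene turned sign. Each such fit leaves a lone array in a group, which by itself raises the standard error. The drop therefore does not show that the calls rest on single arrays. In each called gene the lowest array of the higher group stood above both arrays of the lower group, which also held for 56.8% of all genes tested.

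**Figure D1:**
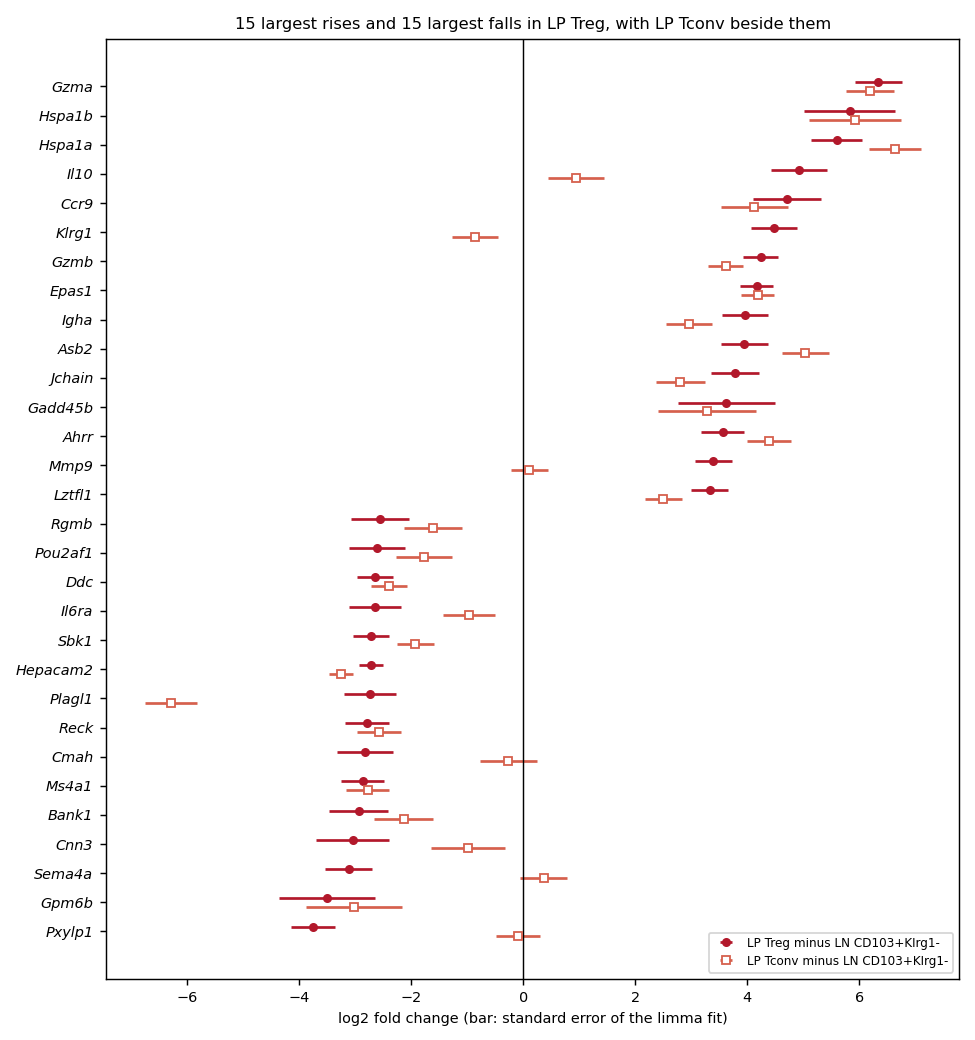
Log2 fold change (horizontal axis) of the 15 largest rises and 15 largest falls, with points for gut Treg (LP Treg) and open squares for gut Tconv (LP Tconv), each against lymph node CD103+Klrg1- Treg; bars are standard errors of the limma fit. Gzma, Ccr9 and Epas1 lie at like values for both gut populations, whereas the squares of Il10, Klrg1 and Mmp9 lie between -0.86 and 0.94 and those of Pxylp1 and Sema4a at -0.10 and 0.36.

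The 4 genes by which these gut Treg are known in the study, Il10, Klrg1, Ccr9 and Gzma, fell into different patterns across the groups. Il10 was 14.01 and 13.53 in gut Treg, 9.19 and 8.50 in lymph node CD103+Klrg1- Treg, 10.53 and 9.04 in gut Tconv and 10.18 and 9.54 in the CD103+Klrg1+ subset. Both gut Treg arrays lay above all other 21 arrays of the study, of which the highest reached 11.00. The rise over the lymph node Treg was 4.92 ± 0.50 (adjusted p = 1.95e-05), that over gut Tconv was 3.98 ± 0.50 (adjusted p = 7.95e-05), and gut Tconv did not pass the test against the lymph node Treg (0.94 ± 0.50, adjusted p = 0.348).

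Klrg1 was 13.26 and 13.50 in gut Treg, 8.95 and 8.86 in the lymph node Treg sorted as Klrg1-, 8.11 and 7.97 in gut Tconv and 14.14 and 14.18 in the subset sorted as Klrg1+. Its rise of 4.48 ± 0.41 (adjusted p = 6.46e-06) is against a population gated to lack the protein. The gut Treg, which were not gated on Klrg1, stood close to the Klrg1+ lymph node subset. On the 6 arrays of cells moved into NOD RAG-/- hosts Klrg1 ran from 10.59 to 14.01, a range that covers gut Treg. It ran from 6.84 to 9.27 on the 7 arrays of cells exposed to DEC-HAPeptide.

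Ccr9, the gut homing chemokine receptor, was 13.00 and 13.21 in gut Treg and 12.81 and 12.23 in gut Tconv. In the 3 lymph node subsets it lay between 7.05 and 9.58. It ran from 7.20 to 7.71 on the 6 arrays of cells moved into NOD RAG-/- hosts. On the 7 arrays of cells exposed to DEC-HAPeptide it ran from 6.10 to 8.59. Its rise of 4.71 ± 0.60 (adjusted p = 0.000174) was close to that of gut Tconv (4.13 ± 0.60, adjusted p = 0.000229), and the gut populations differed by 0.59 ± 0.60. Of its 4 other probe sets, 3 lay above the filter and all 3 were higher in gut Treg, by 2.18, 5.14 and 6.16.

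Gzma, a granule protease of killer lymphocytes, had the largest rise of all called genes. It was 11.98 and 12.45 in gut Treg, 5.76 and 6.00 in the lymph node Treg, and 12.20 and 11.94 in gut Tconv. The difference of 6.34 ± 0.42 (adjusted p = 2.54e-07) starts from a level below the filter of 6.27, the median of all values, where an array gives little more than background, so its size is uncertain. Gut Treg and gut Tconv differed by 0.15 ± 0.42. A high Gzma level was not confined to the gut. It ran from 9.10 to 12.03 on the 6 arrays of cells moved into NOD RAG-/- hosts. On the 7 arrays of cells exposed to DEC-HAPeptide it ran from 5.85 to 6.19.

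**Figure D2:**
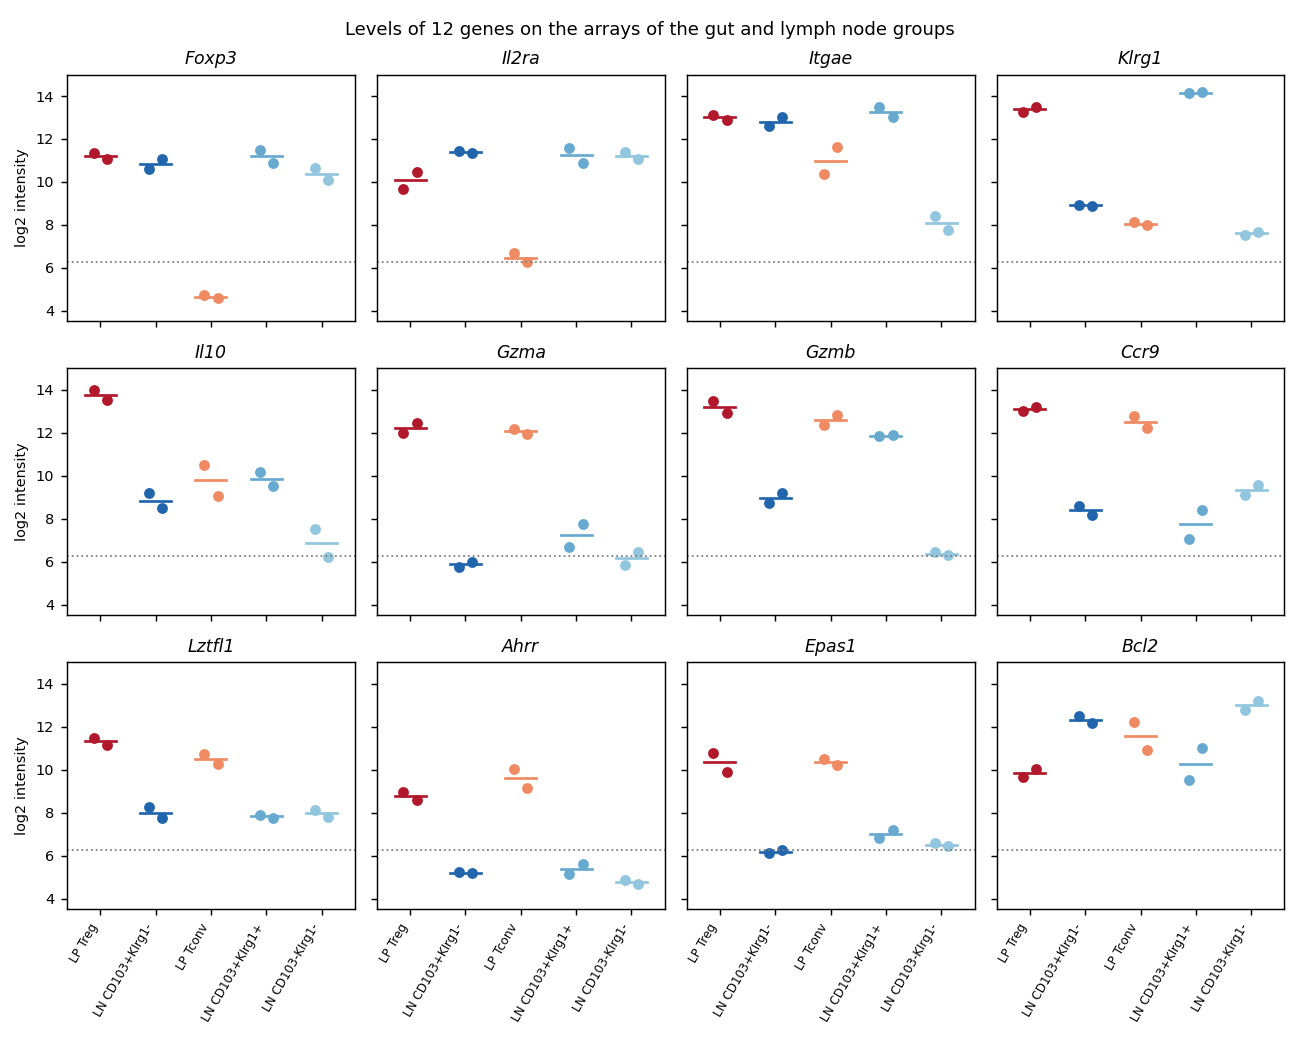
Log2 intensity (vertical axis) of 12 genes on each of the 2 arrays of 5 groups; points are arrays, short lines are group means and the dotted line is the filter of 6.27. Il10 is highest in gut Treg (LP Treg), Ccr9, Gzma, Lztfl1, Ahrr and Epas1 are high in both gut groups (LP), and Klrg1 is high in gut Treg and in the lymph node (LN) CD103+Klrg1+ Treg.

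Over all genes tested, 1.13% were called higher and 1.49% lower, and the count of each list below stands beside these shares. Among 28 suppressor and repair mediators tested, 6 rose in gut Treg and none fell, with a median log2 difference of 0.49 against 0.06 over all genes. Beside Il10, Gzma and Gzmb these were Fgl2, a secreted inhibitor of T cells and dendritic cells, Metrnl, a secreted repair factor, and Lag3, an inhibitory receptor. Gzmb, the granule protease granzyme B, was 13.50 and 12.94 in gut Treg and 8.75 and 9.21 in the lymph node CD103+Klrg1- Treg. It was 12.35 and 12.83 in gut Tconv, 11.83 and 11.88 in the CD103+Klrg1+ subset and 6.45 and 6.31 in the CD103-Klrg1- subset. The CD103+Klrg1- Treg thus stood below gut Treg, gut Tconv and the CD103+Klrg1+ subset, and above the CD103-Klrg1- subset. The rise of Gzmb in gut Treg was 4.24 ± 0.31 (adjusted p = 4.53e-07). Fgl2 was 12.47 and 12.30 in gut Treg against 10.03 and 10.25 (2.25 ± 0.41, adjusted p = 0.00442), and 11.69 and 11.33 in the CD103+Klrg1+ subset. Lag3 was 7.41 and 7.15 against 6.09 and 6.28 (1.09 ± 0.21, adjusted p = 0.00567), and gut Tconv, at 6.20 and 6.18, had the lymph node level. Ctla4 was 14.53 and 13.81 against 13.20 and 13.47 and was not called (0.84 ± 0.74, adjusted p = 0.714). Without gut Treg replicate 1 or without lymph node replicate 1 the list had 3 calls, and without lymph node replicate 2 it had 5.

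Of 20 cytotoxic and killer receptor genes, 4 rose (1.13% over all genes). They were Gzma, Gzmb and Klrg1, which stand in other lists too, and Srgn, the proteoglycan that packs granzymes (0.81 ± 0.20, adjusted p = 0.0364). Klrd1, a natural killer receptor chain, was 5.18 and 5.49 in gut Treg against 7.75 and 7.52 and did not pass the test (-2.30 ± 0.72, adjusted p = 0.123). Srgn was not called when any of the 4 arrays was left out, and the list then had 3 calls each time. The pore protein Prf1 differed by 0.11 and was not called.

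Of 23 gut and tissue homing receptors tested, 6 rose and 1 fell (over all genes 1.13% and 1.49%). The median was 0.45, and 0.26 without gut Treg replicate 1 or without lymph node replicate 1. The receptors that rose were Ccr9, Gpr183, Ccr1, Cxcr6, Ccr4 and Ccr2. Gpr183, the oxysterol receptor that guides cells to lymphoid clusters, was 11.33 and 10.83 in gut Treg, 8.71 and 8.16 in lymph node Treg and 11.35 and 12.11 in gut Tconv (2.64 ± 0.50, adjusted p = 0.00543). Ccr4, a skin and tissue homing receptor, was 9.02 and 8.15 in gut Treg against 6.89 and 6.96 (1.66 ± 0.23, adjusted p = 0.000352), and 6.97 and 6.69 in gut Tconv. Among the other 21 arrays of the study its highest value was 7.34.

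Cxcr6, a receptor of tissue-resident lymphocytes, was 9.08 and 8.25 in gut Treg and 6.76 and 6.35 in lymph node Treg (2.11 ± 0.46, adjusted p = 0.016), but 11.33 and 11.31 in gut Tconv, which were called above gut Treg (difference 2.65 in size, adjusted p = 0.00206). Ccr2 was 12.32 and 11.41 against 10.11 and 10.52 (1.55 ± 0.38, adjusted p = 0.0333) and 10.19 and 9.92 in gut Tconv. In the CD103+Klrg1+ subset Ccr2 was 11.51 and 11.81, within the range of gut Treg. Itgb1, an integrin chain of activated T cells, was 8.02 and 7.93 against 10.00 and 10.04 (-2.05 ± 0.52, adjusted p = 0.0417). It lies outside the rule for named genes and was chosen after its values were seen. Itgb1 has 6 probe sets, and it was not called lower with the mean of all probe sets or with no filter. The integrin chains Itga4 (0.87 ± 0.36, adjusted p = 0.292) and Itgb7 (0.51 ± 0.54, adjusted p = 0.777) were not called. The list had 2 calls without gut Treg replicate 1, 4 without lymph node replicate 1 and 3 without lymph node replicate 2, and Itgb1 was not called when any one of the 4 arrays was left out.

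Of 16 genes of the retinoic acid and aryl hydrocarbon response, 4 rose and 1 fell (over all genes 1.13% and 1.49%). Dhrs3, a retinal reductase that retinoic acid induces, was 9.26 and 9.66 in gut Treg, 6.39 and 6.35 in lymph node Treg and 6.82 and 7.81 in gut Tconv (3.09 ± 0.31, adjusted p = 1.95e-05). It was the retinoid gene of the list by which gut Treg also stood above gut Tconv (2.15 ± 0.31, adjusted p = 0.000408). Rarg, a retinoic acid receptor, was 8.05 and 8.19 against 9.18 and 9.23 (-1.09 ± 0.20, adjusted p = 0.00544), with 8.17 and 8.10 in gut Tconv.

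Ahrr, the repressor that the aryl hydrocarbon receptor induces against itself, was 8.94 and 8.60 in gut Treg, 5.22 and 5.20 in the lymph node Treg and 10.03 and 9.16 in gut Tconv. The rise was 3.56 ± 0.39 (adjusted p = 3.54e-05), from a level below the filter. Tiparp, another target of the receptor, was 11.17 and 10.30 against 8.60 and 8.44 (2.21 ± 0.41, adjusted p = 0.00533), with 11.25 and 11.10 in gut Tconv. The receptor gene Ahr differed by 0.80 ± 0.41 (adjusted p = 0.434), and Cyp1b1 was 8.23 and 7.74 in gut Tconv but 6.50 and 6.82 in gut Treg against 5.85 and 6.00 (0.74 ± 0.22, adjusted p = 0.11). Leaving out any one array except gut Treg replicate 2 left 3 calls, without Tiparp and Rarg.

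The promoters of Ahrr and Tiparp are shown because both genes respond to that receptor, whose binding core GCGTG is in capitals on either strand (CACGC is its reverse complement). Each is the 250 bases before a RefSeq start on GRCm38.p6, read 5′ to 3′ on the gene's strand. Ahrr lies on the minus strand at chr13:74292332-74292581 with 3 copies, and Tiparp on the plus strand at chr3:65528197-65528446 with 1 copy.
Ahrr: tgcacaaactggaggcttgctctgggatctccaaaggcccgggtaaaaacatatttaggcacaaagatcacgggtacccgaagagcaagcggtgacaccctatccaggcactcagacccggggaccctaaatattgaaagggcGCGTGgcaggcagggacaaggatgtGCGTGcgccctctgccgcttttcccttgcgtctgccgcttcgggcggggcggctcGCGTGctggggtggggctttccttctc
Tiparp: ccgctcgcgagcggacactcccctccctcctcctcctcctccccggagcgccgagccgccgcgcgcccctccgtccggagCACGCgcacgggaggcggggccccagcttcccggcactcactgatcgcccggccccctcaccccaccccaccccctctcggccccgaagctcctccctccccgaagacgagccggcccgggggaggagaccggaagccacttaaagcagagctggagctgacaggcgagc
The core was found in 42.0% of 12899 promoter windows of the genes tested, in 37.1% of 143 windows of genes called higher and in 36.8% of 204 windows of genes called lower, on both strands. The nuclear receptor half-site AGGTCA stood in 11.3%, 8.4% and 12.3% of the same windows.

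Of 26 tissue Treg regulators, 5 rose and none fell (over all genes 1.13% and 1.49%), with a median of 1.02. Epas1, a hypoxia-inducible transcription factor, was 10.79 and 9.90 in gut Treg, 6.11 and 6.25 in lymph node Treg and 10.50 and 10.23 in gut Tconv (4.16 ± 0.29, adjusted p = 2.67e-07). Id2, an inhibitor of E proteins, was 12.53 and 11.88 in gut Treg, 9.24 and 8.89 in lymph node Treg, 12.48 and 12.59 in gut Tconv and 11.03 and 10.90 in the CD103+Klrg1+ subset (3.14 ± 0.38, adjusted p = 0.000109). Bhlhe40, a repressor of activated lymphocytes, was 12.08 and 11.00 against 8.81 and 8.32 (2.97 ± 0.61, adjusted p = 0.0104).

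Rel and Nfil3 were higher on gut Treg replicate 1 than on replicate 2, and both gut Treg arrays lay above the lymph node Treg. The NF-kB subunit Rel was 10.86 and 9.13 in gut Treg against 7.25 and 7.07 (2.83 ± 0.51, adjusted p = 0.00435), and Nfil3 was 10.13 and 8.71 against 7.18 and 6.97 (2.34 ± 0.45, adjusted p = 0.00615). Gut Treg replicate 1 exceeded replicate 2 in 103 of the 142 genes called higher and lay below it in 150 of the 187 called lower. The factors Gata3 (0.68 ± 0.38, adjusted p = 0.508), Maf (0.90 ± 0.40, adjusted p = 0.338) and Prdm1 (1.14 ± 0.41, adjusted p = 0.199) were not called. Without gut Treg replicate 1 or lymph node replicate 2 the list had 2 calls, without lymph node replicate 1 it had 3, and Epas1 was called each time.

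Of 26 genes of lymphoid recirculation and of central T cells, 7 fell in gut Treg (1.49% over all genes), none rose and 19 were not called. The median was -0.87. Those that fell were Il6ra, Bcl2, Bach2, Id3, Nsg2, St6gal1 and Foxp1. Bcl2, the survival factor of resting lymphocytes, was 9.67 and 10.02 in gut Treg against 12.49 and 12.18 in the lymph node Treg (-2.49 ± 0.51, adjusted p = 0.00977). It was 12.22 and 10.93 in gut Tconv and 13.21 at most in the CD103-Klrg1- subset. In the CD103+Klrg1+ subset Bcl2 was 9.55 and 11.00, a range that overlapped that of gut Treg. Its 4 other probe sets were all lower in gut Treg, by 0.31 to 2.09 in size. Bach2, a repressor that maintains resting T cells, was 7.24 and 8.54 against 10.49 and 10.15 (-2.43 ± 0.50, adjusted p = 0.0111).

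Il6ra, the interleukin 6 receptor, was 7.00 and 7.63 against 9.70 and 10.22 (-2.65 ± 0.47, adjusted p = 0.00378), but a second probe set above the filter did not show this fall (difference 0.13). St6gal1, a sialyltransferase, was 11.56 and 12.30 against 13.52 and 13.77, and 11.72 and 10.64 in gut Tconv (-1.71 ± 0.37, adjusted p = 0.0166). Ccr7, the lymph node entry receptor, was 8.03 and 7.09 against 8.93 and 8.84 and was not called (-1.32 ± 0.58, adjusted p = 0.327). Id3, given here outside the naming rule and chosen after its values were seen, was 5.58 and 6.62 against 8.60 and 8.09 (-2.25 ± 0.56, adjusted p = 0.0397). Without gut Treg replicate 1 none of the 26 was called, without lymph node replicates 1 and 2 the counts were 2 and 1, and the median stayed between -0.81 and -0.89.

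The Treg core genes moved in both directions, with 2 of 31 higher and 2 lower (over all genes 1.13% and 1.49%). Their median of -0.11 ran from -0.21 to 0.02 with 1 array left out. Klrg1 and Neb rose, and Plagl1 and Nrp1 fell. Nrp1, a surface receptor used to mark thymus-derived Treg, was 9.68 and 9.86 in gut Treg, 12.06 and 12.17 in lymph node CD103+Klrg1- Treg, 11.26 and 10.85 in the CD103+Klrg1+ subset and 7.73 and 7.24 in gut Tconv. The fall of -2.34 ± 0.40 (adjusted p = 0.00304) placed gut Treg between the lymph node Treg and the gut Tconv.

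Plagl1, a zinc finger factor, was 9.59 and 9.20 in gut Treg against 12.19 and 12.06 (-2.73 ± 0.47, adjusted p = 0.00304), 9.75 and 8.46 in the CD103+Klrg1+ subset and 6.69 and 4.99 in gut Tconv. Neb, which encodes the muscle protein nebulin, was 10.10 and 9.62 in gut Treg and 7.88 and 7.81 in lymph node Treg (2.02 ± 0.30, adjusted p = 0.000862). It was 9.39 and 8.93 in the CD103+Klrg1+ subset and 5.60 and 5.50 in gut Tconv. Without gut Treg replicate 1 Nrp1 was not called, and the list then had 2 calls higher and 1 lower.

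Of 24 helper effector genes, 3 rose and 1 fell (over all genes 1.13% and 1.49%), with a median of 0.32. Gut Tconv were called higher than the same lymph node arrays for 15 of the 24 (their calls higher make up 2.31% of all genes). Il18rap, an interleukin 18 receptor chain, was 9.20 and 8.98 in gut Treg, 7.09 and 7.36 in lymph node Treg and 10.53 and 11.94 in gut Tconv (1.86 ± 0.30, adjusted p = 0.00179). Il12rb1, an interleukin 12 and 23 receptor chain, was 9.29 and 9.32 against 7.47 and 7.76, and 9.85 and 9.30 in gut Tconv (1.69 ± 0.26, adjusted p = 0.00113). Il1r1 rose from below the filter (6.75 and 6.62 against 5.74 and 5.70; 0.96 ± 0.19, adjusted p = 0.00832). Tnf, the cytokine, was 7.22 and 7.82 against 8.96 and 8.79 (-1.36 ± 0.32, adjusted p = 0.028). Gut Treg were called below gut Tconv for 14 of the 24 (calls in that direction make up 1.29% of all genes). Calls of Il1r1 and Tnf were lost without gut Treg replicate 1 and without either lymph node array, which left 2 calls each time.

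Of 23 TNF receptor and costimulatory genes, 2 rose and 2 fell (over all genes 1.13% and 1.49%). Tnfrsf1b, the TNF receptor of activated Treg, was 12.72 and 11.41 against 10.17 and 10.91 (1.52 ± 0.39, adjusted p = 0.047). It was 9.83 and 9.41 in gut Tconv and 11.47 and 11.23 in the CD103+Klrg1+ subset. Slamf1 rose by 1.27 ± 0.33 (adjusted p = 0.0457), while Cd86 (-1.45 ± 0.29, adjusted p = 0.00886) and the tetraspanin Cd81 (-1.31 ± 0.30, adjusted p = 0.0232) fell. None of the 23 was called without gut Treg replicate 1 or without either lymph node array.

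Of 24 genes of interleukin and TGF-beta signalling, 2 rose and none fell (over all genes 1.13% and 1.49%). Ifngr1, the interferon gamma receptor, was 11.74 and 11.44 against 9.62 and 9.84 (1.86 ± 0.35, adjusted p = 0.00567), and Smad3, a mediator of TGF-beta signals, was 10.99 and 11.12 against 10.05 and 10.23 (0.92 ± 0.20, adjusted p = 0.0165). Gut Tconv, at 10.28 and 10.40, lay nearer to the lymph node level of Smad3. The list had no call without gut Treg replicate 1 or lymph node replicate 1, and 1 call without gut Treg replicate 2 or lymph node replicate 2.

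Of 19 heat shock chaperones 3 rose in gut Treg (1.13% over all genes), Hspa1a, Hspa1b and Hspa5. Hspa1a, an inducible Hsp70, was 9.72 and 9.57 in gut Treg, 3.93 and 4.17 in lymph node Treg and 10.41 and 10.95 in gut Tconv (5.60 ± 0.46, adjusted p = 1.33e-06). Its near-identical copy Hspa1b, whose probes may share signal with it, was 12.53 and 12.80 against 6.33 and 7.35, and 12.75 and 12.77 in gut Tconv (5.83 ± 0.82, adjusted p = 0.000473). On the lymph node CD103+Klrg1+ arrays Hspa1b was 7.09 and 10.04, so lymph node arrays differed among themselves. Hspa5, the chaperone of the endoplasmic reticulum, rose by 0.84 ± 0.21 (adjusted p = 0.0347) and was not called when any one array was left out.

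The 30 immediate early and stress response genes had the highest median of all lists, 1.45, and 24 of them were above 0. Yet 2 were called, both higher (1.13% over all genes). Tnfaip3, the brake on NF-kB, was 13.70 and 12.78 against 10.47 and 10.34, and 13.53 and 12.83 in gut Tconv (2.83 ± 0.67, adjusted p = 0.0276), and Gadd45b was 12.43 and 11.24 against 8.51 and 7.91 (3.62 ± 0.87, adjusted p = 0.0305). Fos was 12.83 and 13.15 against 10.19 and 9.17 (3.31 ± 1.26, adjusted p = 0.233), and Jun was 10.79 and 10.86 against 6.84 and 6.56 (4.12 ± 1.23, adjusted p = 0.0997). Their standard errors, taken from the spread within all 9 groups, exceeded 1, and neither passed the test; both were chosen after their values were seen. The count of this list depended on the fit: 20 genes were called higher with the spread taken from the 2 groups alone, 13 with the C57BL/6 arrays only, 13 with the replicate number as a block and 12 with crossed numbers. It was 10 higher and 1 lower with array weights, 7 higher and 1 lower without 2 dim arrays of the CD25- group given peptide, 5 higher with the mean of all probe sets of a gene, 1 without gut Treg replicate 2, and 0 without gut Treg replicate 1 or without either lymph node array. The part of the tissue procedure in these values was not tested.

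No cell cycle or glycolysis gene was called, while 2 interferon-induced genes were called lower (calls lower make up 1.49% of all genes). None of 35 cell cycle genes passed the test, with 28 above 0 and a median of 0.40, which was 0.71 without lymph node replicate 1 and 0.09 without lymph node replicate 2. Cdk1, the kinase that drives entry into mitosis, was 8.16 and 8.23 against 7.59 and 5.93 (1.43 ± 0.61, adjusted p = 0.313). None of 22 genes of glycolysis and the hypoxia response was called (median 0.18, and 0.11 without gut Treg replicate 1). Of 27 interferon-induced genes 2 fell, Ifit3 (8.22 and 8.68 against 9.93 and 10.25; -1.64 ± 0.31, adjusted p = 0.00543) and Usp18, the brake on interferon signalling (-1.19 ± 0.29, adjusted p = 0.0334), with a median of 0.13 that ran from -0.02 to 0.11 with 1 array left out. Usp18 was not called when any one array was left out, and Ifit3 was not called without gut Treg replicate 1 or lymph node replicate 2.

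Of 24 genes of cholesterol and fatty acid metabolism 1 rose and 2 fell (over all genes 1.13% and 1.49%). Both that fell are cholesterol exporters: Abca1 was 6.44 and 7.18 against 9.13 and 9.61, and 7.32 and 6.46 in gut Tconv (-2.56 ± 0.48, adjusted p = 0.00567), and Abcg1 was 8.94 and 9.20 against 10.09 and 10.36 (-1.15 ± 0.22, adjusted p = 0.00567). The fatty acid elongase Elovl6 rose by 0.82 ± 0.21 (adjusted p = 0.047). Of 15 genes of the Bcl2 family and cell death, Bcl2 and Bmf, an opponent of Bcl2, fell (Bmf -1.26 ± 0.28, adjusted p = 0.0161), beside 1.49% over all genes. The exporters were not called without gut Treg replicate 1 or lymph node replicate 2; Elovl6 was not called when any one array was left out, and Bmf was not called without gut Treg replicate 2 or lymph node replicate 2.

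**Figure D3:**
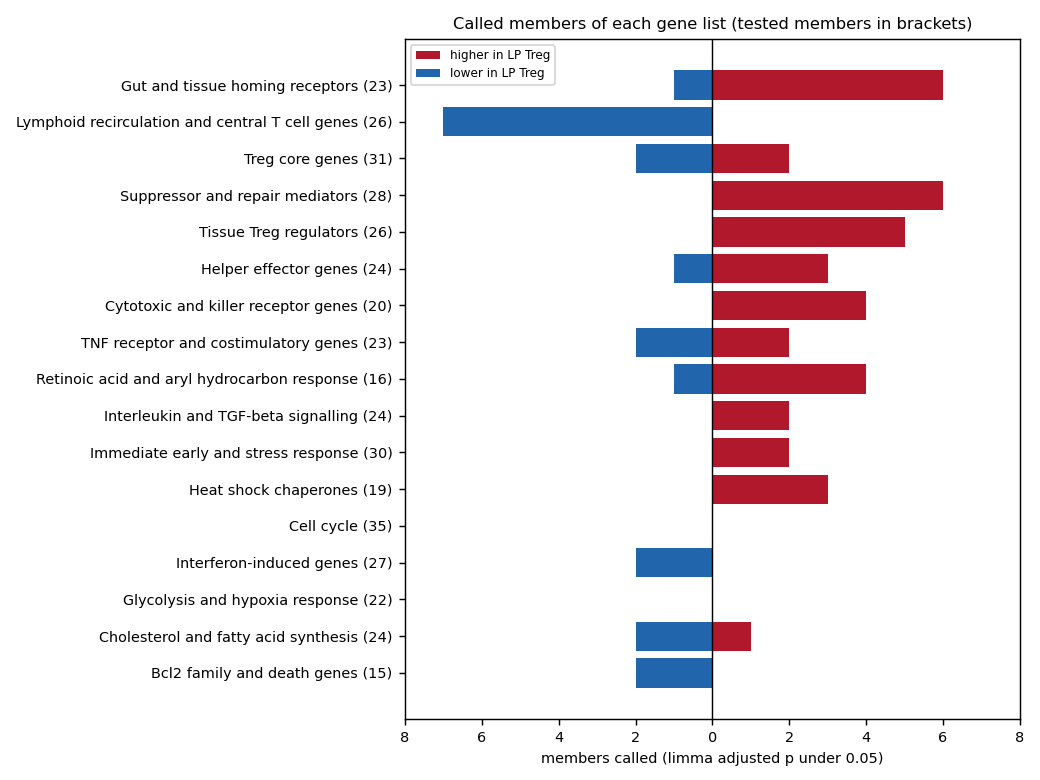
Number of called members (horizontal axis; higher in gut Treg to the right, lower to the left) in each of 17 gene lists, with the number tested in brackets. Homing receptors and suppressor mediators have 6 members higher, and 7 members of the recirculation list are lower. Over all genes tested, 1.13% were called higher and 1.49% lower.

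The calls were then read against the other groups, which share arrays with the main comparison, so that overlaps are descriptions. Gut Tconv against the same lymph node arrays gave 651 calls (5.2% of genes; 2.31% higher and 2.89% lower), and gut Treg against gut Tconv gave 338 (2.7%; 1.41% higher and 1.29% lower). Of the 329 genes called in gut Treg, 189 (57.4%) were also called in gut Tconv in the same direction, 70 higher and 119 lower, and are termed gut site genes. Another set of 52 (15.8%), 35 higher and 17 lower, set gut Treg apart from both the lymph node Treg and the gut Tconv in the same direction and are termed gut Treg genes. Cables1 and Muc1 are in both sets; Muc1 was named after its values were seen. Within the gut site set, 19 genes (5 higher and 14 lower) were also called between the CD103+Klrg1+ and CD103+Klrg1- lymph node subsets. The direction was the same, so the shift of these genes is not confined to the gut. All these comparisons share the CD103+Klrg1- arrays. Since gut Tconv lack Foxp3, genes that fall with the loss of Foxp3, such as Plagl1 and Nrp1, also enter the gut site set. The 2 sets counted 48 and 16 genes without gut Treg replicate 1, 67 and 20 without lymph node replicate 1, and 59 and 26 without lymph node replicate 2; the gut site set counted 118 without gut Tconv replicate 2.

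The largest rises of the gut Treg set were those of Il10, Klrg1, Mmp9, Dhrs3, Nckap5, Ccrl2, Samsn1 and Cables1. Mmp9, a secreted gelatinase, was 10.38 and 10.69 in gut Treg and 7.17 and 7.11 in lymph node Treg, and did not exceed 7.81 on any of the other 21 arrays (3.39 ± 0.33, adjusted p = 1.35e-05). Ccrl2, a receptor that binds chemerin, was 11.26 and 10.58 against 8.41 and 8.25, and 8.72 and 7.92 in gut Tconv (2.59 ± 0.61, adjusted p = 0.0265). Samsn1, an adaptor that dampens lymphocyte signals, was 11.07 and 10.29 against 8.53 and 7.89 (2.47 ± 0.37, adjusted p = 0.000862). Ccrl2 was not called when any one of the 4 arrays was left out.

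Its falls were led by Pxylp1, Sema4a, Cmah, St8sia6, Nsg2, Hdgfl3, Evl and Trat1. For St8sia6, Nsg2, Hdgfl3 and Evl the range of the lymph node CD103+Klrg1+ subset overlapped that of gut Treg. For Pxylp1, Sema4a, Cmah and Trat1 it did not. Hdgfl3, for one, was 6.70 and 7.29 in gut Treg and 6.91 and 7.33 in that subset. Pxylp1, a phosphatase of glycosaminoglycan synthesis, was 3.68 and 3.27 in gut Treg and at least 5.76 on every other array (-3.75 ± 0.39, adjusted p = 2.82e-05), but its second probe set above the filter differed by -0.79. Cmah, which converts sialic acid to its glycolyl form, was 8.07 and 8.80 in gut Treg and 11.33 and 11.19 in lymph node Treg (-2.82 ± 0.51, adjusted p = 0.00435). It was 11.63 and 10.35 in gut Tconv and at least 9.996 on every other array of the study. Other Cmah probe sets above the filter differed by less, from -0.22 to -1.44. Sema4a, a semaphorin, was 4.69 and 5.18 against 7.54 and 8.56, and 8.77 and 8.06 in gut Tconv (-3.12 ± 0.42, adjusted p = 0.000294). Its second probe set above the filter differed by -0.44. Gut Treg lay below the filter for Pxylp1 and Sema4a, so the sizes of both falls are uncertain. Cmah was not called without gut Treg replicate 1 or lymph node replicate 1. St8sia6 and Trat1 were not called without gut Treg replicate 1 or without either lymph node array. Nsg2 was not called without gut Treg replicate 1, and Evl was not called when any one array was left out.

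Measured over all 23 arrays, both gut Treg arrays lay above the other 21 for 24 of the 35 gut Treg genes that were higher, for 7 of the 70 higher gut site genes, and for 2.6% of all genes with a difference above 0. They lay below the other 21 for 6 of the 17 lower gut Treg genes, for 5 of the 119 lower gut site genes, and for 1.5% of all genes with a difference below 0. Gut Treg genes were chosen for standing apart from lymph node CD103+Klrg1- Treg and gut Tconv, whose arrays are among the 21. Gut site genes were chosen for a like shift in gut Tconv, so the gap between the sets is in part built in.

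A further reading set the calls beside those that separate the CD103+Klrg1+ from the CD103+Klrg1- lymph node subset, 81 genes (0.647%). Of the 329 calls, 37 (11.2%) were among these in the same direction, 15 higher and 22 lower. Both comparisons subtract the same CD103+Klrg1- arrays, so part of this overlap is built in. The largest rises among the shared genes were Klrg1, Gzmb, Id2, Ky, Cxcr6 and Adam8. Klrg1 stands there through the sort, because the lymph node subsets were gated on it. Adam8, a metalloprotease, was 8.95 and 8.18 in gut Treg, 6.53 and 6.78 in the Klrg1- subset and 8.13 and 8.09 in the Klrg1+ subset (1.91 ± 0.25, adjusted p = 0.000205). The largest falls were Plagl1, Hepacam2, Ddc, Gsta4, Sh3bgrl2 and Nsg2. Hepacam2, of the immunoglobulin family, was 4.37 and 4.74 in gut Treg, 7.37 and 7.18 in the Klrg1- subset and 4.49 and 4.58 in the Klrg1+ subset (-2.72 ± 0.22, adjusted p = 1.26e-06). The glutathione transferase Gsta4 was 6.12 and 6.94 against 9.34 and 8.40, and 6.82 and 6.30 in the Klrg1+ subset (-2.34 ± 0.32, adjusted p = 0.000408). The comparison of the lymph node subsets gave 25 calls without CD103+Klrg1- replicate 1, 33 without its replicate 2, 35 and 47 without CD103+Klrg1+ replicates 1 and 2, and 117 with the replicate number as a block.

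Against gut Tconv, 4 genes went the other way, higher in gut Treg and lower in gut Tconv than in the lymph node Treg: Ky, Neb, Rin2 and Snx9, of which Rin2 and Snx9 were named after their values were seen. Ky, which encodes a muscle protein, was 10.14 and 9.70 in gut Treg and 7.75 on both CD103+Klrg1- arrays (2.17 ± 0.25, adjusted p = 5.6e-05). It was 9.37 and 8.76 in the CD103+Klrg1+ subset and 6.09 and 6.07 in gut Tconv. A further 82 calls stood in none of the 3 other comparisons in the same direction.

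**Figure D4:**
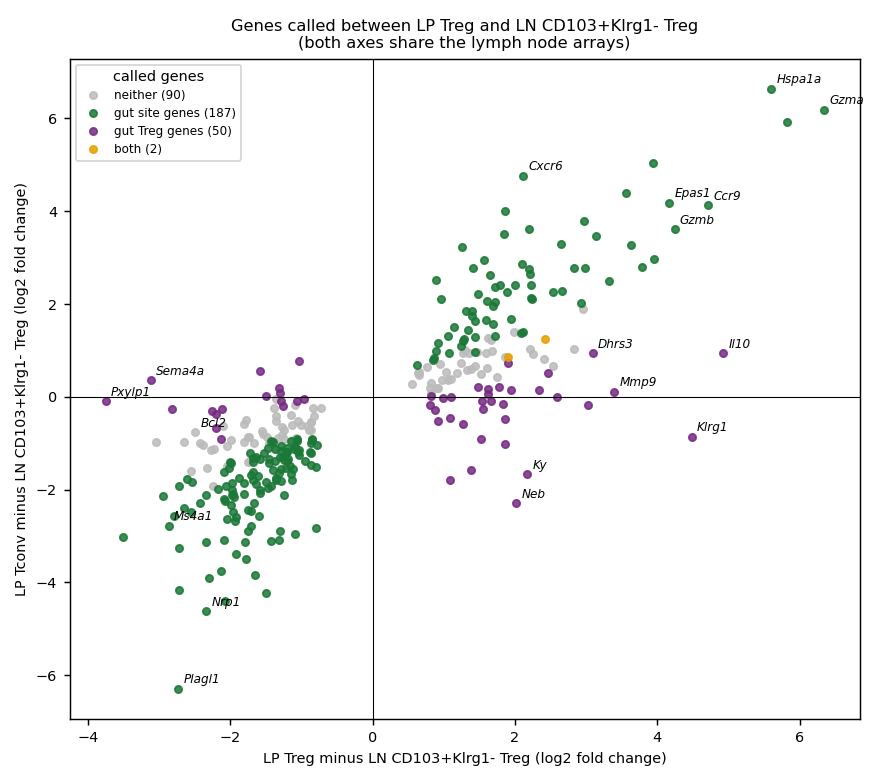
Log2 fold change of the 329 called genes in gut Treg (LP Treg, horizontal axis) and in gut Tconv (LP Tconv, vertical axis), each against lymph node CD103+Klrg1- Treg; colours mark gut site genes, gut Treg genes, both or neither. Both axes share the lymph node arrays, so some slope is built in; Il10, Klrg1 and Mmp9 lie to the right near 0 on the vertical axis, and Gzma and Ccr9 lie high on both.

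Markers of other cells moved with some of these genes. Of 11 B cell markers tested 3 fell (1.49% over all genes), Ms4a1, Bank1 and Cd22. The median over the list was -0.92 (-0.59 without lymph node replicate 1). The B cell surface gene Ms4a1 was 6.28 and 6.18 in gut Treg, 9.61 and 8.59 in lymph node CD103+Klrg1- Treg, 9.84 and 10.88 in the Klrg1+ subset and 6.58 and 6.06 in gut Tconv (-2.86 ± 0.39, adjusted p = 0.000311). The summed intensity of 13 B cell markers was 1861 and 1938 in gut Treg, 4872 and 3127 in lymph node CD103+Klrg1- Treg and 5466 and 10265 in the CD103+Klrg1+ subset. Pou2af1, a B cell coactivator outside the list, fell along with them (-2.61 ± 0.49, adjusted p = 0.00567). Less B cell RNA in a pool and less RNA per cell cannot be told apart in such bulk samples. Bank1 and Pou2af1 were not called without gut Treg replicate 1 or lymph node replicate 1, and Cd22 was not called when any one array was left out.

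Of 10 plasma cell markers tested 2 were called higher (1.13% over all genes), Igha and Jchain. The list had a median of 0.28, with 8 members above 0. Iglv1, of the same list, was lower without a call (-1.12 ± 0.38, adjusted p = 0.159). Igha, the constant region of immunoglobulin A, was 12.31 and 10.10 in gut Treg, 7.26 and 7.23 in lymph node Treg and 9.96 and 10.45 in gut Tconv (3.96 ± 0.42, adjusted p = 2.82e-05), and Jchain, which joins its dimers, was 10.90 and 9.97 against 7.46 and 5.85 (3.78 ± 0.43, adjusted p = 5.6e-05). The sum of 11 plasma cell markers was 10852 and 5543 in gut Treg, 5275 and 5809 in gut Tconv and 3589 and 3314 in the lymph node Treg. The plasma cell marker Sdc1 differed by 0.21 ± 0.25 (adjusted p = 0.805).

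None of 6 gut epithelium, 21 myeloid and dendritic, 9 CD8 T and natural killer, 9 granulocyte and mast cell or 4 erythroid markers tested was called. Calls higher make up 1.13% of all genes and calls lower 1.49%. Sums of 24 epithelial markers were 1543 and 1762 in gut Treg and 1582 and 1612 in lymph node Treg. In the stroma and endothelium list, 1 of 9 rose: Acta2 was 7.72 and 8.15 against 6.37 and 6.64 (1.43 ± 0.26, adjusted p = 0.00472; not called without gut Treg replicate 2 or lymph node replicate 1). Of 8 gamma delta T and innate lymphoid markers 2 rose, Il1r1 and the leukotriene receptor Ltb4r1 (1.60 ± 0.33, adjusted p = 0.0105), neither called without gut Treg replicate 1 or without either lymph node array. How far other cells enter the remaining calls was not tested.

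**Figure D5:**
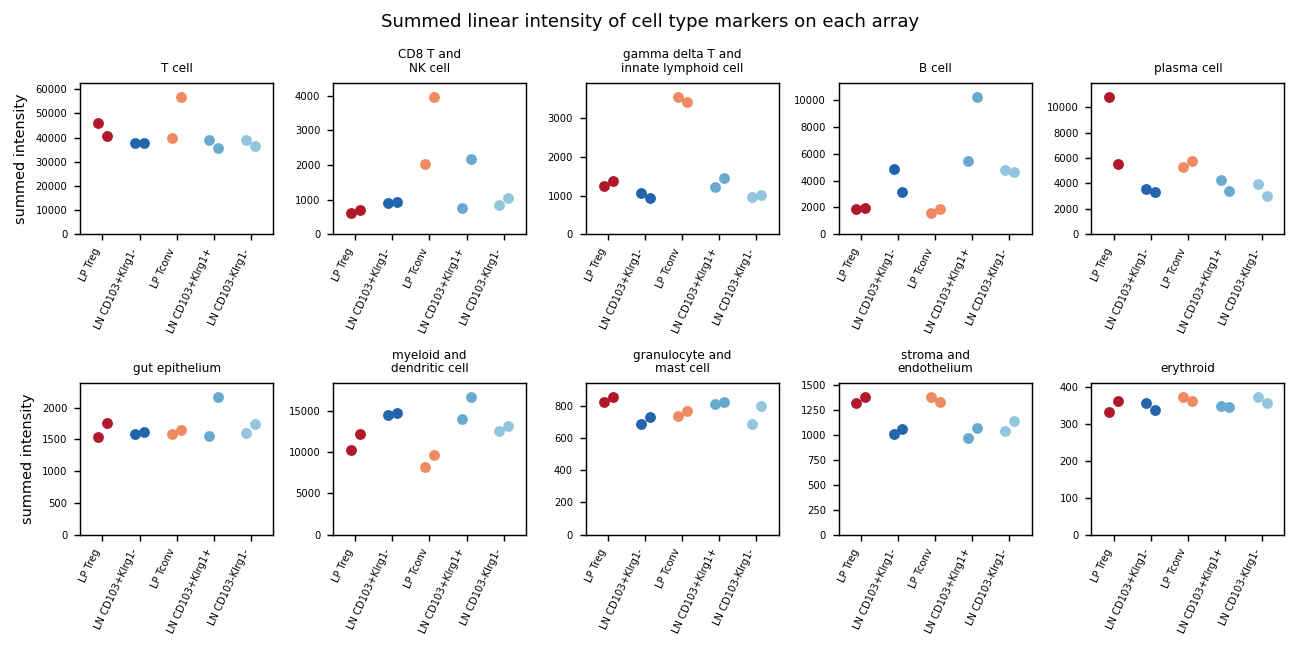
Summed linear intensity (vertical axis, each panel from 0) of 10 marker lists on each array of 5 groups; points are arrays. B cell sums are lower in both gut groups (LP) than in the 3 lymph node (LN) groups, plasma cell sums are higher in the gut groups, and gut epithelium sums overlap between gut and lymph node Treg.

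The promoters of genes called higher held the AP-1 motif TGANTCA, the site of Fos and Jun family factors, in 10.5% of 143 windows, against 3.4% of 204 windows of genes called lower and 4.8% of 12899 windows of all genes tested, counted on both strands without a test. The 14 genes with such a window include Gzmb, Tnfaip3, Fgl2, Ccr4 and Hspa5. Gzmb and Fgl2 are shown because both are effector genes that rose. Capitals mark TGANTCA and, in Fgl2, GCGTG further upstream; both are the 250 bases before a RefSeq start on GRCm38.p6, 5′ to 3′ on the gene's strand. Gzmb lies on the minus strand at chr14:56262335-56262584 and Fgl2 on the plus strand at chr5:21372423-21372672.
Gzmb: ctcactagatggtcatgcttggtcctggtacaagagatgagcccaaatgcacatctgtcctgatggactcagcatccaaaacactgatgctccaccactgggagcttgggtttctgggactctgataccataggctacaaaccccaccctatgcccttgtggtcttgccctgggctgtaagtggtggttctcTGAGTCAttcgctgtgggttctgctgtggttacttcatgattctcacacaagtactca
Fgl2: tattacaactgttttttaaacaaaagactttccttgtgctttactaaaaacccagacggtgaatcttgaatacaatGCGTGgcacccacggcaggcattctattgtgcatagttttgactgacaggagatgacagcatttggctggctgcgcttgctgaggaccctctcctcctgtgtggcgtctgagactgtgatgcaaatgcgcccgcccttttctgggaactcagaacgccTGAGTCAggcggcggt

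Of the 86 called genes in the named set, 35 were called under all 16 alternative settings. Among them are Il10, Klrg1, Ccr9, Gzma, Gzmb, Epas1, Ahrr, Lztfl1, Mmp9, Dhrs3, Id2, Ccr4, Pxylp1, Sema4a and Hepacam2. For 23 of the 86 the lower of the compared means lay below the filter, where the size of a fold is uncertain. Another probe set above the filter existed for 40 of them, and in 2, Il6ra and Rgmb, such a probe set had the opposite sign.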

How the data were processed

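Gene expression was measured on 23 Affymetrix mouse arrays, and the deposited series matrix gives a linear intensity per probe set that the authors made with RMA, per the submitters' processing notes. RNA was amplified in 2 rounds before labelling, per the labels' protocols, which can shorten transcripts towards the 3' end. Log2 intensities were used. Of 45101 probe sets, 34945 carry 1 gene symbol, 932 several, 9160 none and 64 are controls. Each of 18193 genes is represented by its probe set with the highest mean, and 12516 genes with a group mean above 6.27 (an intensity of 77.0, the median of all values) were tested. The fit (limma 3.58.1, R 4.3.3) had a mean for each of 9 groups and used the whole set of 23 arrays (14 residual and 3.48 prior degrees of freedom), and p-values were adjusted over all genes tested by Benjamini-Hochberg. Called means an adjusted p under 0.05. The script was tested on simulated data. The labels do not say that replicate numbers pair arrays. Deviations of same-numbered arrays correlated at -0.19 between gut Treg and lymph node CD103+Klrg1- Treg, at -0.07 between both gut populations, and at 0.37 to 0.72 among the 3 lymph node subsets, so the comparison of lymph node subsets is also given with the replicate number as a block. Named genes are the sort genes, the 4 markers, the 15 largest rises and falls whose arrays do not overlap, the 8 largest each way of the gut site and gut Treg sets, the 6 largest each way shared with the Klrg1+ subset, and up to 6 called members of each of 27 lists by p (up to 3 members where fewer were called); clone names were left out. The comparison, its markers and the lists were chosen with earlier results of these data known. Promoter sequences are from RefSeq (GRCm38.p6), found for 10114 of the genes tested. Alternatives covered the normalization, the filter, the choice of probe sets, array weights, a trended variance, the arrays in the fit, the replicate block and each array left out.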

Additional observations from a re-analysis of the deposited data

How the results depend on the processing

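The 329 calls between gut Treg and lymph node CD103+Klrg1- Treg became 1347 with array weights, 801 with the 2 groups alone and 650 without the 2 dim CD25- arrays, and ran from 70 to 253 with 1 array left out. With the replicate number as a block they became 592, of which 319 are calls of the unblocked fit, and with crossed numbers, an alternative chosen after seeing the data, 610. The 651 calls of gut Tconv against lymph node Treg became 102 with the 2 groups alone, 1002 with the replicate block and 1221 without the dim arrays, and ran from 330 to 1758 with 1 array left out; the highest count was without gut Tconv replicate 1. The 338 calls between both gut populations became 221 with array weights, 17 with the 2 groups alone, 513 with the block and 557 without the dim arrays, with a range of 173 to 513. The 81 calls between both CD103+ lymph node subsets became 264 with array weights, 38 with the C57BL/6 arrays only and 134 without the dim arrays, and ranged from 25 to 47. Gut site genes, 189, became 63, 334 and 368 with the 2 groups alone, the block and no dim arrays, and ranged from 48 to 197; gut Treg genes, 52, became 8, 105 and 109, and ranged from 16 to 49. The block changed no call among the 86 named called genes. The cause of these shifts was not tested; left-out fits assume that a lone array varies like the other groups.

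Of the 329 calls, 231 were kept with the mean of all probe sets of a gene, where 3 turned sign, and 68 without gut Treg replicate 1, where 70.0% of the calls were higher; no other setting turned a sign. The share higher was 53.5% and 51.9% without lymph node replicates 1 and 2. Quantile and loess normalization moved the median of all genes from 0.06 to 0.03 and 0.00; they left the sign of the median of 25 of the 27 lists and turned those of the Bcl2 family and erythroid lists, both near 0. Intensities of RMA carry no detection call, so low values have no bound here.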

Other observations

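The genes next to Ccr9, in the order of the RefSeq gene table, were looked up after the values were seen. Lztfl1, which encodes a regulator of protein traffic to cilia and is a neighbour of Ccr9 among the genes tested, was 11.48 and 11.17 in gut Treg, 8.25 and 7.75 in lymph node CD103+Klrg1- Treg, 10.75 and 10.25 in gut Tconv and between 7.75 and 8.13 in both other lymph node subsets. Its rise was 3.33 ± 0.33 (limma adjusted p = 1.73e-05), and that in gut Tconv was 2.50 (adjusted p = 8.21e-05). Ccr1, a receptor for inflammatory chemokines, was 7.24 and 6.37 in gut Treg, 4.58 and 4.59 in lymph node Treg and 7.23 and 6.77 in gut Tconv (2.22 ± 0.36, adjusted p = 0.00179; not called without gut Treg replicate 1). Fyco1, between Ccr9 and Cxcr6, differed by -0.13 ± 0.25 (adjusted p = 0.891).

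Asb2, a subunit that targets actin-binding proteins for degradation, was 10.03 and 10.37 in gut Treg, 6.34 and 6.18 in lymph node Treg and 10.20 and 12.39 in gut Tconv (3.95 ± 0.42, adjusted p = 3.15e-05). Ddc, the enzyme that makes dopamine and serotonin, was 5.69 and 6.22 in gut Treg, 8.84 and 8.35 in lymph node CD103+Klrg1- Treg, 6.74 and 7.00 in the CD103+Klrg1+ subset and 6.09 and 6.31 in gut Tconv (-2.64 ± 0.32, adjusted p = 0.000109). Reck, a membrane inhibitor of matrix metalloproteases, fell while the protease gene Mmp9 rose: Reck was 6.78 and 7.72 in gut Treg, 10.02 and 10.05 in lymph node Treg and 7.86 and 7.07 in gut Tconv (-2.79 ± 0.40, adjusted p = 0.000552).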
